A study of Mus musculus with 6 samples.

Results

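The genes of the myostatin, activin and follistatin system were followed in C2C12 cells, a line of mouse myoblasts, the precursor cells that fuse to form myotubes. The system was taken as 10 genes of 20659 named on the array: the ligand genes Mstn, Gdf11, Inhba and Inhbb, the receptor genes Acvr1b, Acvr2a and Acvr2b, and Fst, Fstl1 and Fstl3 of the follistatin family. In the si-lncMGPF group, 3 samples had received an siRNA that targets lncMGPF, a long noncoding RNA, and in the si-NC group 3 samples carried a control siRNA. All 6 had differentiated for 2 days, and their total RNA was read on Agilent 1-colour arrays. The labels name no genotype, dose or separate cultures, so the p-values rest on differences among 3 samples a group that could be technical replicates. The genes were chosen by name and function with the si-lncMGPF against si-NC differences of these arrays already known, above all that of Fst. Those differences are therefore given below as a description. Counts of limma calls that include these genes are printed beside those of all probes and are not a test of them.

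Myostatin, GDF11 and the activins are secreted dimers of the TGF-beta superfamily. They bind the type II receptors encoded by Acvr2a and Acvr2b, which engage a type I receptor such as the product of Acvr1b, and the signal passes to the nucleus through Smad2 and Smad3. In skeletal muscle this signalling restrains growth and differentiation, and loss of myostatin enlarges muscle in mice. Follistatin, the product of Fst, binds activins, myostatin and GDF11 outside the cell and blocks them from their receptors.

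The arrays lay on 2 slides. Slide 2 carried replicates 2 and 3 of si-lncMGPF, and slide 1 carried replicate 1 of that group together with all 3 si-NC arrays. Slide and knockdown are thus partly confounded, and the differences of the 10 genes and the medians of the pathway lists are also given by slide. Negative control spots read 37.3 and 42.5 intensity units on slide 2 and 20.1 to 21.8 on slide 1. The 75th percentile of the signal, used to scale the arrays, was 923, 580 and 492 intensity units on si-lncMGPF replicates 1, 2 and 3, against 931, 688 and 755 on si-NC replicates 1, 2 and 3. No probe was named for lncMGPF, so the knockdown itself was not checked here. Of the muscle markers, 8 of 8 (among them Myod1, Myog, Des and Ckm) were well above background on all 6 arrays, with a summed scaled signal of 65.8 to 85.3 in si-lncMGPF and 79.4 to 85.001 in si-NC. Of the 6 fibroblast markers 5 were above background on all arrays, with a summed signal of 206 to 280 in si-lncMGPF and 201 to 256 in si-NC. Lum and Postn of that list, picked out after their values were seen, did not overlap between the groups. Lum had a log2 difference of -0.54, with -0.76 on slide 1 and -0.43 on slide 2, and Postn had -0.20, with -0.12 on slide 1 and -0.24 on slide 2. Pdgfra, also without overlap, had 0.11. Among the markers outside that list and clearly above background on all arrays of a group, Myh3 (-0.15) and Adgre1 (0.14) also did not overlap. Myh3, a muscle marker, had -0.09 on slide 1 and -0.18 on slide 2. Pecam1 (0.66) and the muscle marker Acta1 (-0.30), picked out after their values were seen, overlapped and turned with the slide. Pecam1 had -0.04 on slide 1 and 1.02 on slide 2, and Acta1 had 0.23 on slide 1 and -0.57 on slide 2. Of all probes that entered the fit described below, 13.3% were lower and 9.56% higher in si-lncMGPF without overlap. Markers of other cell types were above background on all 6 arrays for 2 of 5 adipocyte genes (Lpl and Fabp4), 1 of 4 osteoblast genes (Runx2) and 3 of 5 endothelial and leukocyte genes (Kdr, Pecam1 and Adgre1). The summed scaled signals also include the markers that were not above background. They were 0.746 to 0.911 in si-lncMGPF and 0.862 to 0.975 in si-NC for adipocytes. For osteoblasts they were 0.0869 to 0.109 in si-lncMGPF and 0.0957 to 0.138 in si-NC. For endothelial cells and leukocytes they were 1.61 to 1.74 in si-lncMGPF and 1.37 to 1.77 in si-NC. Adipoq, Ibsp, Sp7 and Cdh5, defining markers of adipocytes, osteoblasts and endothelial cells, were above background on none. The part of these markers in the results below was not tested.

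The 10 genes had 11 probes, 2 for Acvr2a and 1 for each other gene. To enter the fit, a probe had to exceed background clearly on all 3 arrays of 1 group or the other. That held for 9 probes of 8 genes, each well above background on all 6 arrays, while the probes of Mstn and Acvr1b failed it. At an adjusted p below 0.05 in limma, 0 of the 9 probes passed, beside 0.105% of the 24661 probes tested on the array. At an unadjusted p below 0.05 there were 3 of the 9, beside 15.8% of all tested probes. On the scaled signal, the groups did not overlap for 4 probes. Fst, Gdf11 and Fstl3 were lower in si-lncMGPF on every array, a pattern of 13.3% of tested probes. Inhbb was higher on every array, a pattern of 9.56%. Because the genes were chosen with this contrast known, nothing is read from these counts.

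**Figure D1:**
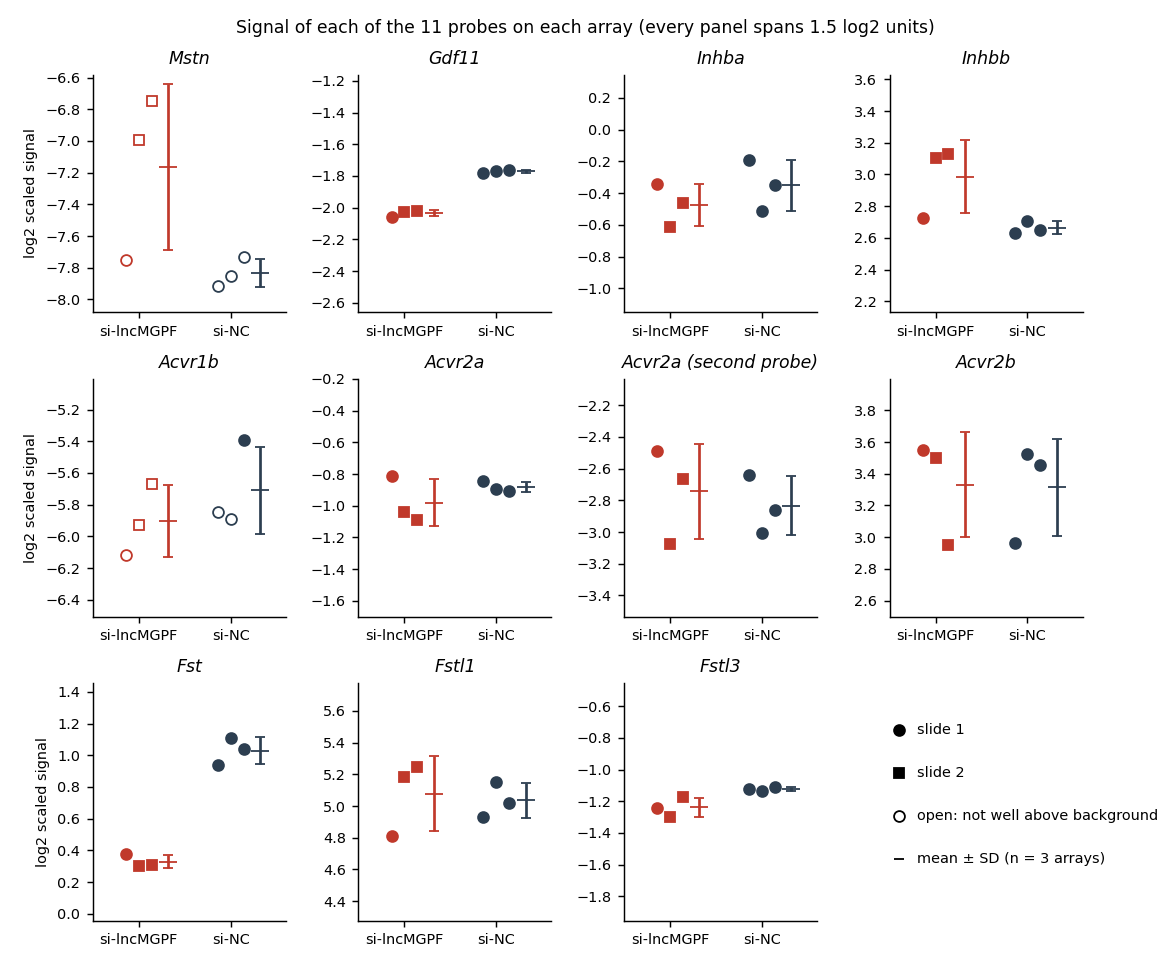
Log2 scaled signal (0 is the 75th percentile of the array) of the 11 probes on each array, si-lncMGPF left of si-NC, with circles for slide 1, squares for slide 2, open symbols for spots not well above background, and bars for mean ± SD (n = 3 arrays). Fst, Gdf11 and Fstl3 sit lower on every si-lncMGPF array, Inhbb sits higher, and the Mstn spots are open throughout.

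Fst showed the largest group difference among the 9 tested probes. On the log2 scale relative to the array's 75th percentile, its signal was 0.38, 0.30 and 0.31 on si-lncMGPF replicates 1, 2 and 3, against 0.94, 1.11 and 1.04 on si-NC replicates 1, 2 and 3. The 3 si-lncMGPF arrays lay close together and all below the lowest si-NC array. The means were 0.33 ± 0.042 in si-lncMGPF and 1.03 ± 0.086 in si-NC (SD, n = 3 each), a log2 difference of -0.70 (SE 0.09) or a 1.62-fold lower signal. Expressed on a linear scale, the si-lncMGPF arrays held 63.7%, 60.4% and 60.6% of the si-NC mean. The difference was -0.65 on the slide 1 array and -0.72 over the slide 2 arrays, so it was of similar size on both slides. Of all tested probes, 3.64% had a difference as low as that of Fst or lower. The unscaled intensities were 1200, 716 and 609 in si-lncMGPF, against 1785, 1485 and 1552 in si-NC. In RNA from whole cultures, fewer cells that make a transcript and less transcript per cell cannot be told apart.

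Fstl3 encodes another secreted protein that binds activins and myostatin. Its signal was -1.24, -1.30 and -1.17 on si-lncMGPF replicates 1, 2 and 3, against -1.12, -1.14 and -1.11 on si-NC replicates 1, 2 and 3. The groups did not overlap, but the highest si-lncMGPF array came near the lowest si-NC array. The log2 difference was -0.12 (SE 0.08), with -0.12 on the slide 1 array and -0.11 on slide 2, a smaller shift than that of Fst.

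Fstl1 encodes a secreted glycoprotein with a follistatin-like domain. Its signal was 4.81, 5.18 and 5.24 on si-lncMGPF replicates 1, 2 and 3, against 4.93, 5.15 and 5.02 on si-NC replicates 1, 2 and 3. The si-lncMGPF arrays spread to both sides of the si-NC arrays. The log2 difference of 0.04 (SE 0.14) joined -0.23 on slide 1 and 0.18 on slide 2, and it changed sign under 7 of 14 other settings.

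Among the ligands, Gdf11 had the tightest replicates of all 9 tested probes. GDF11 is closely related to myostatin and patterns the vertebral axis in the mouse embryo. Its signal was -2.06, -2.03 and -2.02 on si-lncMGPF replicates 1, 2 and 3, against -1.78, -1.77 and -1.76 on si-NC replicates 1, 2 and 3. Both groups formed narrow, separate clusters, at -2.04 ± 0.019 in si-lncMGPF and -1.77 ± 0.0085 in si-NC (SD, n = 3 each). The log2 difference was -0.26 (SE 0.08), with -0.28 on the slide 1 array and -0.25 on slide 2, a 1.20-fold lower signal on the si-lncMGPF arrays. The SE is wider than these SDs because limma draws each probe's variance toward that of all probes. Each spot is measured once per array, and Feature Extraction gave the 9 probes an error of 10% to 12.1% of the signal per spot, so such close replicates are narrower than the software's own spot error.

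Inhbb encodes the subunit of activin B and was the member with a higher scaled signal on every si-lncMGPF array. The unscaled intensities overlapped, at 6094, 4994 and 4307 in si-lncMGPF against 5763, 4497 and 4748 in si-NC. Scaled, Inhbb read 2.72, 3.11 and 3.13 on si-lncMGPF replicates 1, 2 and 3, against 2.63, 2.71 and 2.65 on si-NC replicates 1, 2 and 3. Replicate 1 of si-lncMGPF lay just above the highest si-NC array, and both slide 2 arrays lay far above it. The log2 difference was 0.32 (SE 0.13), made of 0.06 on slide 1 and 0.45 on slide 2, so most of it came from the slide 2 arrays.

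Inhba encodes the subunit of activin A. Its signal was -0.35, -0.61 and -0.46 on si-lncMGPF replicates 1, 2 and 3, against -0.19, -0.51 and -0.35 on si-NC replicates 1, 2 and 3. The groups overlapped, and the log2 difference of -0.12 (SE 0.12) was 0.006 on slide 1 and -0.19 on slide 2.

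Mstn, the myostatin gene, was not measured by its probe. The spots read 4.29, 4.56 and 4.57 intensity units on si-lncMGPF replicates 1, 2 and 3, against 3.86, 2.98 and 3.54 on si-NC replicates 1, 2 and 3, well above background on 0 of 6 arrays. Feature Extraction put the error of these spots at 99.6% to 99.7% of the signal. On the scaled log2 scale Mstn read -7.16 in si-lncMGPF and -7.83 in si-NC, and its apparent difference of 0.67 was 0.08 on slide 1 and 0.96 on slide 2. The 12140 probes of the array that were above background nowhere had a median of 0.07 on slide 1 and 1.07 on slide 2, beside which the Mstn values stand. No fold is given, and a level of Mstn below this limit was not detectable.

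**Figure D2:**
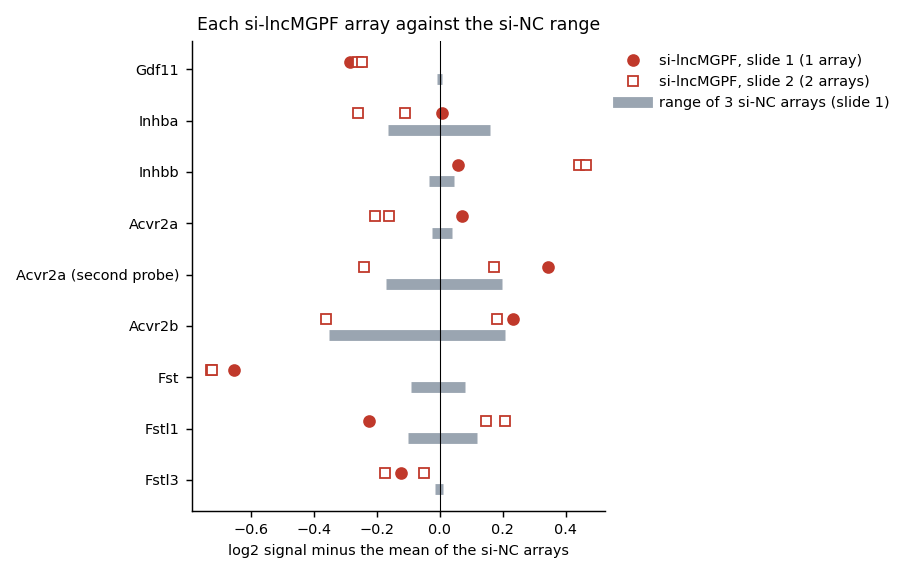
Log2 signal of each si-lncMGPF array minus the mean of the 3 si-NC arrays, for the 9 tested probes, with filled circles for slide 1 and open squares for slide 2. Grey bars give the range of the si-NC arrays. For Fst and Gdf11 all 3 si-lncMGPF arrays lie together to the left of the grey bar. Inhbb, the brighter Acvr2a probe and Fstl1 split by slide. The slide 2 arrays of the dimmer (second) Acvr2a probe lie on both sides of 0.

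The type II receptor genes showed no separation of the groups. Acvr2b read 3.55, 3.50 and 2.95 on si-lncMGPF replicates 1, 2 and 3, against 2.96, 3.52 and 3.46 on si-NC replicates 1, 2 and 3. One array of each group was low and the others high, and the log2 difference of 0.02 (SE 0.22) was smaller than the SDs of 0.33 in si-lncMGPF and 0.31 in si-NC. It joined 0.23 on slide 1 and -0.09 on slide 2. The brighter probe of Acvr2a read -0.81, -1.04 and -1.09 on si-lncMGPF replicates 1, 2 and 3, against -0.84, -0.90 and -0.91 on si-NC replicates 1, 2 and 3. Its log2 difference was -0.10 (SE 0.10), with 0.07 on slide 1 and -0.18 on slide 2. The dimmer probe of Acvr2a read -2.49, -3.08 and -2.66 on si-lncMGPF arrays, against -2.64, -3.01 and -2.86 on si-NC arrays, a log2 difference of 0.09 (SE 0.18), with 0.34 on slide 1 and -0.03 on slide 2. The 2 probes differed in sign over all arrays, though both were positive on the single slide 1 array. On slide 2 the brighter probe was negative on both arrays. The dimmer probe had -0.24 on replicate 2 and 0.17 on replicate 3, so its slide 2 value joined opposite signs. Acvr1b, the type I receptor gene, was well above background on si-NC replicate 3 alone. It read 13.3, 9.52 and 9.68 intensity units in si-lncMGPF and 16.2, 11.6 and 17.96 in si-NC. The level it could have in si-lncMGPF without being detected exceeded its si-NC mean, so no fold is given.

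Promoters of the members whose groups did not overlap are shown for Gdf11 and Fstl3, lower on every si-lncMGPF array, and Inhbb, higher on every one. The RefSeq promoter table (GRCm38.p6, while the array was designed on mm9) held 9 of the 10 genes, all but Fst, each from 250 bases before to 50 after the annotated start, written 5′ to 3′ on the strand of the gene. Capitals mark the E-box letters CANNTG, the core bound by myogenic basic helix-loop-helix factors. The windows are chr10:128891669-128891968 on the minus strand for Gdf11, chr10:79777024-79777323 on the plus strand for Fstl3 and chr1:119422199-119422498 on the minus strand for Inhbb.
Gdf11: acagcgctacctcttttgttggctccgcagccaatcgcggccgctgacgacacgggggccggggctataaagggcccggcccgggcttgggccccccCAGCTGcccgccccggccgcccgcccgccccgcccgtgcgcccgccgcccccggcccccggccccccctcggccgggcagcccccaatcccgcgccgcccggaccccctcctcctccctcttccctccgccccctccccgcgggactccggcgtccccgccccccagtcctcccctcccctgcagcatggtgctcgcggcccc
Fstl3: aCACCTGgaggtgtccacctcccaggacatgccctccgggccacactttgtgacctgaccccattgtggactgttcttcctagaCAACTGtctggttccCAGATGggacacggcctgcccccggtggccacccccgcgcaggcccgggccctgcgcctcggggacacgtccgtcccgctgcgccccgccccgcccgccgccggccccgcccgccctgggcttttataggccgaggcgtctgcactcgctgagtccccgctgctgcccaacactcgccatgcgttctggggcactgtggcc
Inhbb: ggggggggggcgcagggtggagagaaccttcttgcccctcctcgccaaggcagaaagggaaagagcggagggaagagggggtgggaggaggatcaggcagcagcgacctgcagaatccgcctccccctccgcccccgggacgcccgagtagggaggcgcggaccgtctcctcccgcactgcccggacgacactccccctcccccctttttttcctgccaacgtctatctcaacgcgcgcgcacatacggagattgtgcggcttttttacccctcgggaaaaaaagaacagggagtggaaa

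The Gdf11 window held 1 E-box, of the form CAGCTG, and 1 TATAAA. The Fstl3 window held 3 E-boxes, besides 2 matches of CAGAC, the core letters bound by Smad3, and 1 TATAAA. The Inhbb window held none of these motifs. Over all 9 windows, 4 held CANNTG, beside 72.3% of the 32851 promoters in the table. CAGCTG, which is 1 form of CANNTG, was in 1 window and in 16.3% of the table. CAGAC was in 4 windows and in 49.6% of the table, and TATAAA in 4 windows and in 13.6%. Both strands were searched. The Mstn window, with 4 E-boxes, was the richest of the 9. These matches describe letters in the windows and say nothing of binding in these cells.

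The rest of the pathway was followed through 5 lists of 60 other genes, of which 48 had a tested probe, the brightest standing for the gene. In limma 0 of the 48 passed an adjusted p below 0.05, beside 0.105% of all tested probes. At an unadjusted p below 0.05 there were 3 higher and 7 lower in si-lncMGPF, beside 15.8% of all tested probes in either direction. Without overlap of the groups there were 10 lower and 7 higher genes, beside 13.3% lower and 9.56% higher among all tested probes. The median log2 difference was -0.04, beside 0.01 for all tested probes. It was -0.14 on the slide 1 array and 0.01 on slide 2, where all tested probes had -0.04 and 0.03.

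Among genes for other ligands and for the enzymes that process them, 11 of 12 tested had a negative log2 difference, with a median of -0.19, while 47.7% of all tested probes were negative. Inhbe, among the 11 at -0.02, was well above background on 3 si-NC arrays but only 1 si-lncMGPF array. The median of the list was -0.19 on slide 1 and -0.23 on slide 2, so it lay below that of all probes on both. On the slide 1 array Tgfb1 (0.03), Tll1 (0.09) and Gdf3 (0.15) were positive and the others negative. Of all tested probes, 55.9% were below 0 on slide 1. None passed the adjusted threshold in limma, and 2 were lower at an unadjusted p below 0.05, Furin and Gdf1 (Gdf1 picked out after its value was seen, with -0.42, its other probe with 0.01). The 3 brightest were Furin, the protease that cleaves many TGF-beta family precursors (log2 difference -0.26, SE 0.09, adjusted p = 0.258 in limma), Bmp1, whose protease product frees myostatin and GDF11 from their propeptides (-0.17, SE 0.11, adjusted p = 0.474), and Tgfb3 (-0.16, SE 0.10, adjusted p = 0.444). Furin averaged 4.20 in si-lncMGPF and 4.46 in si-NC, without overlap. The other 2 probes of Bmp1 had differences of -0.17 and -0.16, close to the first. Inha, whose subunit turns activins into inhibins, had -0.18, chosen after its value was seen, as it pairs with the subunits of Inhba and Inhbb.

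Receptors, co-receptors and decoys outside the 10 genes went both ways, with 4 positive and 2 negative of 6 tested and a median of 0.07. The median was -0.08 on slide 1 and 0.14 on slide 2, so its sign turned with the slide. At an unadjusted p below 0.05, 2 were lower, Tgfbr1 and Tdgf1, a co-receptor of Nodal picked out after its value was seen (-0.84, with -0.33 on slide 1 and -1.10 on slide 2). The other probes of Tdgf1 and of Tgfbr1 failed the background filter, so each rests on a single probe. Tgfbr2, the type II receptor of TGF-beta, averaged 3.63 in si-lncMGPF and 3.46 in si-NC (log2 difference 0.16, SE 0.10, adjusted p = 0.428). Tgfbr1, a type I receptor that myostatin also uses, averaged 1.38 in si-lncMGPF and 1.73 in si-NC (-0.35, SE 0.09, adjusted p = 0.217), with -0.37 on slide 1 and -0.34 on slide 2. Acvr1, a type I receptor mainly of BMPs, had 0.02 (SE 0.12), with -0.20 on slide 1 and 0.13 on slide 2, and its dimmer probe had 0.21.

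Of 10 genes for other extracellular antagonists 4 were tested, 1 positive and 3 negative, and 0 passed either threshold in limma. Their median was -0.13, with -0.03 on slide 1 and -0.10 on slide 2. Lefty2, named after its value was seen, was the lowest at -0.68, with 0.37 on slide 1 and -1.20 on slide 2. It was well above background on 3 si-NC arrays but only 1 si-lncMGPF array, and the count and median include it. Dcn, the proteoglycan decorin, had -0.22 (SE 0.14, adjusted p = 0.445), with -0.50 on slide 1 and -0.08 on slide 2. Bgn, biglycan, had -0.03, with 0.13 on slide 1 and -0.12 on slide 2. Wfikkn1, which encodes a binding protein of myostatin and GDF11, had 0.13 (SE 0.15, adjusted p = 0.679). Wfikkn1 too turned with the slide, with -0.20 on slide 1 and 0.30 on slide 2.

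All 15 genes for Smads and their regulators were tested, 9 positive and 6 negative, with a median of 0.01. The median was -0.12 on slide 1 and 0.05 on slide 2. The brightest were Tgif1, a corepressor (0.07, SE 0.13), Smad4, the common Smad (0.01, SE 0.11), and Smad3 (0.02, SE 0.10), with adjusted p from 0.799 to 0.972. Smad2 had 0.08 (SE 0.08). At an unadjusted p below 0.05, Smad7 and Pmepa1, feedback inhibitors that Smad signalling itself raises, were lower and Zfyve9, which encodes an anchor that presents Smads to the receptors, was higher. These 3 were picked out after their values were seen. Smad7 averaged 0.22 in si-lncMGPF and 0.52 in si-NC, a difference of -0.30 (SE 0.12, adjusted p = 0.291). Pmepa1 averaged 2.52 in si-lncMGPF and 2.88 in si-NC, a difference of -0.36 (SE 0.08, adjusted p = 0.2), and -0.31 on its other probe. Zfyve9 averaged -2.87 in si-lncMGPF and -3.25 in si-NC, a difference of 0.37 (SE 0.16, adjusted p = 0.311), with 0.63 on slide 1 and 0.25 on slide 2.

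Genes that respond to Smad2 and Smad3 signalling were mixed, 6 positive and 5 negative of 11 tested with a median of 0.06. The median was -0.14 on slide 1 and 0.06 on slide 2, so its sign turned with the slide. The brightest were the matrix genes Fn1 (0.15, SE 0.21), Col1a1 (-0.02, SE 0.12) and Col1a2 (0.07, SE 0.14), with adjusted p from 0.733 to 0.942. Col1a1 is also among the fibroblast markers. At an unadjusted p below 0.05 there were 2 higher, Tgfbi (0.43) and Bhlhe40 (0.27), and 1 lower, Ccn2 (-0.39), all 3 picked out after their values were seen. Each kept its sign on both slides.

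**Figure D3:**
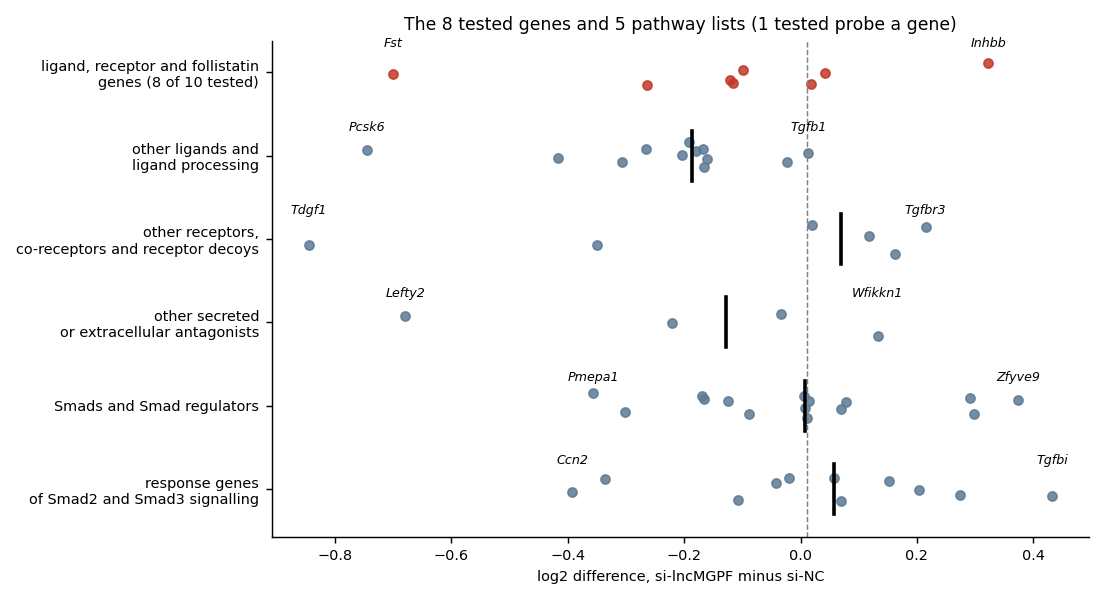
Log2 difference, si-lncMGPF minus si-NC, of the 8 tested genes of the system (red) and of the 48 tested genes in 5 pathway lists (blue), 1 point a gene, with the lowest and highest gene of each row named. Black bars give the list medians, and the dashed line the median of all tested probes, 0.01. Fst at -0.70 and Inhbb at 0.32 are the ends of the top row, and 11 of 12 points of the ligand row lie below 0.

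The genes whose pattern over the 6 arrays was most like that of Fst were ranked by the root mean square difference of mean-centred log2 signals, among 12429 named genes well above background on all arrays. The nearest was Rarres2, which encodes the secreted adipokine chemerin, at 0.048 (Pearson r 0.99 over 6 arrays). It averaged -1.55 in si-lncMGPF and -0.81 in si-NC. Next came Rnf165, a ubiquitin ligase gene, at 0.052 and Myh7, the heavy chain of slow myosin, at 0.053, both with r of 0.99. Rnf165 averaged -0.08 in si-lncMGPF and 0.54 in si-NC, and Myh7 averaged -1.39 in si-lncMGPF and -0.76 in si-NC. The Fst values themselves lay 0.35 from their mean on the same measure. All points share the same 6 arrays and their 2-group layout, so any gene with a similar group difference scores high, and no p is given. No such ranking was made for Mstn, since it was not above background.

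**Figure D4:**
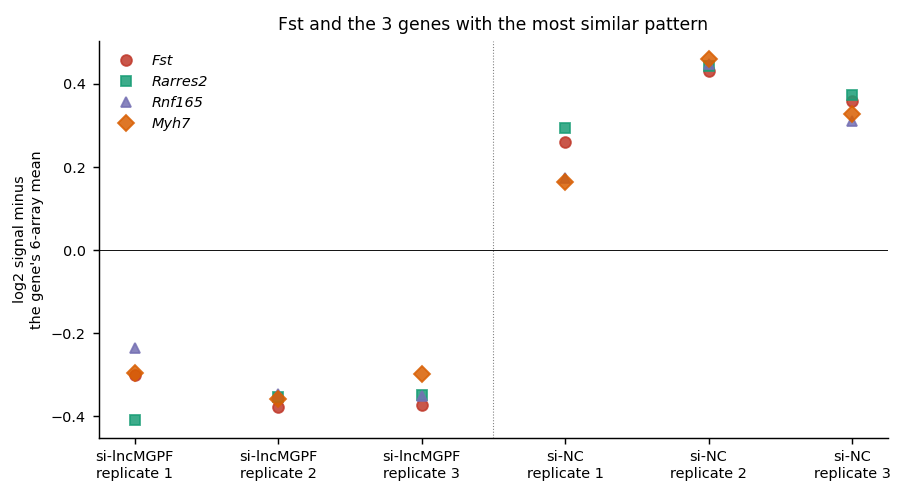
Log2 signal minus the mean over the 6 arrays, for Fst and the 3 genes with the smallest root mean square difference from it (Rarres2, Rnf165 and Myh7), si-lncMGPF arrays left of the dotted line and si-NC arrays right of it. All 4 genes lie below 0 on each si-lncMGPF array and above 0 on each si-NC array.

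The direction of Fst, Gdf11, Fstl3 and Inhbb did not change under any of 14 other settings each. Their groups do not overlap. Leaving out an array, array weights, replicate or slide blocks and the slide 1 arrays alone could thus not have turned the direction. Median centring gave nearly the same differences as the main setting (-0.7003 for Fst). Mainly quantile normalization and normexp were therefore able to change it. For Fst the difference ranged from -0.75 to -0.62, for Gdf11 from -0.28 to -0.19, for Fstl3 from -0.15 to -0.06 and for Inhbb from 0.06 to 0.45. Inhbb fell to the lower end of its range on the slide 1 arrays alone. Without si-lncMGPF replicate 1, when slide and group coincide, limma called Fst, Gdf11 and Inhbb and 5 pathway genes, but it then called 4105 of 24661 probes, and the knockdown cannot be told apart from the slide. Array weights, under which limma called 10149 probes, also gave calls for these 3 genes. Fst alone of the 10 was called after normexp, where limma called 24 of 24661 probes. The same held with an intensity trend and robust prior, where it called 21 of 24661. Because the genes were chosen with this contrast known, nothing is read from these calls.

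**Figure D5:**
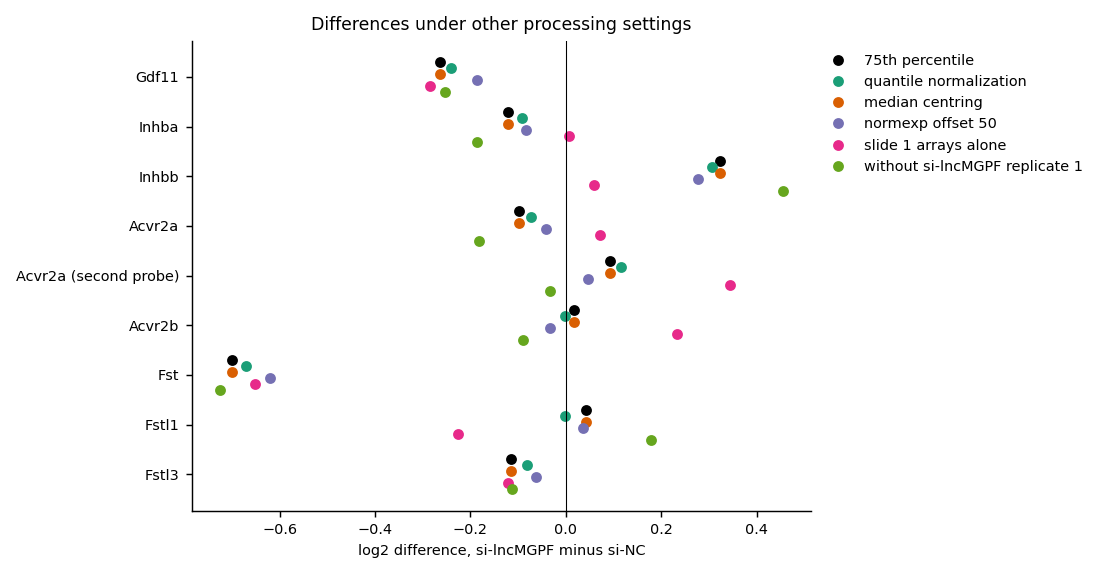
Log2 difference, si-lncMGPF minus si-NC, of the 9 tested probes under 6 settings, 1 colour a setting. The points of Fst stay between -0.72 and -0.62 and those of Gdf11 between -0.28 and -0.19. Inhbb, the brighter Acvr2a probe and Fstl1 shift with the slide that is used. Acvr2b and the dimmer Acvr2a probe shift too, but their si-lncMGPF replicates 2 and 3 of slide 2 lay apart. These were 0.18 and -0.36 from the si-NC mean for Acvr2b, and -0.24 and 0.17 for the dimmer Acvr2a probe.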

How the data were processed

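The authors hybridised Cy3-labelled total RNA to 1-colour Agilent arrays, per the labels, and Feature Extraction 11.0.1.1 gave the deposited processed intensity of each spot, per the file headers. On each array, 44397 of 44397 spots had exactly this deposited intensity in the table of the whole series too, so that table gave no separate alternative. Outlier spots (117 to 134 an array, none of them in the 11 probes) were left out. Each signal was divided by the 75th percentile of its array and put on the log2 scale, which hides any shift common to most transcripts. Accessions were matched without versions to a RefSeq gene table (GRCm38.p6), which named 27234 of 39429 probes. The comparison used lmFit and eBayes of limma 3.58.1 (R 4.3.3), with Benjamini-Hochberg adjustment over 24661 tested probes, and the code was tested on simulated data. The 10 genes, the pathway lists, the markers and the rule for named genes (the 10 genes, up to 4 called and the 3 brightest tested others of each pathway list, and the 3 genes most like Fst) were chosen with earlier results of these data known. Normexp (offset 50) used median spot and background signals and was followed by quantile normalization. Figures were drawn with matplotlib 3.10.9. Slides were told apart by scan identifiers, per the file headers. Alternatives were quantile normalization, median centring, normexp, other filters, slide and replicate blocks, array weights, a trend and robust prior and leaving out each array.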

Additional observations from a re-analysis of the deposited data

How the results depend on the processing

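The number of probes called by limma, 26 at the main setting, was 6 with quantile normalization and 10 with slide as a fixed block. It was 0 with the replicate block (4430 at an unadjusted p below 0.05) and 10149 with array weights. With no filter on dim probes it was 0 (5277 at an unadjusted p below 0.05). Leaving out 1 array in turn gave 0 to 4105, namely 0 when si-lncMGPF replicate 3 or any 1 si-NC array was dropped (1877 to 2696 at an unadjusted p below 0.05), 4 when si-lncMGPF replicate 2 was, and 4105 when si-lncMGPF replicate 1 was. It was 20 with median centring, 24 after normexp, 30 with slide as a random block, 21 with a trend and robust prior and 23 for probes above background on all 6 arrays. The share of higher calls was 26.9% at the main setting, 16.7% with quantile normalization, 15% with median centring and 29.2% after normexp. Pathway genes called were 0, but 18 with array weights, and 0 to 5 when 1 array was left out, the 5 (Ccn2, Gdf1, Pmepa1, Tdgf1 and Tgfbi) without si-lncMGPF replicate 1. The Fst difference of -0.70 was -0.62 after normexp and -0.75 to -0.66 when 1 array was left out. Array weights ranged from 0.13 for si-lncMGPF replicate 1 to 9.39 for si-NC replicate 3. Deviations of same-numbered arrays from their group means correlated at 0.18, 0.32 and -0.06, and those of differently numbered arrays at -0.29 to 0.06. With 3 arrays a group, these values cannot settle whether the numbers pair the samples. Inhba, Acvr2a, Acvr2b and Fstl1 changed sign under at least 1 setting, as did the unmeasured Mstn. The cause of these changes was not tested. Signal over background limits Mstn and Acvr1b.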
